A study of Bos taurus and Sus scrofa with 10 samples.

Results

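The step from the 8-16 cell embryo to the morula in cow (Bos taurus) was described across all genes. The members are the rows of the authors' cow table with at least 1 read per 1000000 library reads (RPM) in the 8-16 cell library, the morula library or both. The rule kept 12334 of the 22845 rows, of which 11386 carry a gene symbol and 948 only an Ensembl-style identifier. It used the level alone and not the direction of change. ABCC6 and ABI3, both at 1.03 RPM in the morula, were just inside the threshold, and ZNF703 and snoU109, both at 0.920 RPM at the 8-16 cell stage, were just outside it.

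The series profiled total RNA in cow and pig at 5 stages, the oocyte, 2 cleavage stages of 2-4 and of 8-16 cells, the morula and the blastocyst, with 1 library per stage and species. The labels name the stage and species of each library and no genotype, treatment, culture condition, breed, age or number of embryos. Both groups compared here are therefore known only as cow 8-16 cell embryos and cow morulae. With 1 library a group there was no test, and no difference below has a replicate check. Intervals in parentheses are 95% intervals from the read counts and cover counting error only, since the RNA was amplified and the labels describe no molecular identifiers.

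In cow the embryonic genome is mainly switched on around the 8-16 cell stage, while messenger RNAs laid down in the oocyte are being degraded. In the next divisions the cells flatten against each other and compact into the morula, forming adherens and tight junctions and an apical and a basal side. The outer cells then begin to form the trophectoderm, which pumps sodium and water to make the blastocoel, and the inner cells form the inner cell mass, which later gives rise to the epiblast and the primitive endoderm.

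The 8-16 cell library held 5432346 reads and the morula library 3899291, with 72.6% and 71.7% of them in gene rows. A count of 0 allowed up to 0.552 RPM in the first and 0.769 RPM in the second (a floor of 3 reads). Mitochondrial rows took 10.7% and 9.15% of the reads. The summed RPM of 8 oocyte markers was 5258 in the oocyte, 711 at the 8-16 cell stage and 121 in the morula, and the summed RPM of 6 trophectoderm markers with a row was 14.9, 5.13 and 2732 at the 8-16 cell stage, in the morula and in the blastocyst. Summed levels of 14 cumulus and granulosa markers, cells that surround the oocyte, were 115 RPM at the 8-16 cell stage and 58.5 RPM in the morula, with reads in 12 and 6 of the 14 rows. PTPRC, a leukocyte marker, had 0 reads at the 8-16 cell stage and 6.92 RPM in the morula. The haemoglobin markers HBA and HBB had 0 reads in both libraries. The row HBG, a haemoglobin gene outside the marker list, had 4 reads at the 8-16 cell stage and 27.7 RPM in the morula.

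Difference here means log2(RPM + 1) in the morula minus log2(RPM + 1) at the 8-16 cell stage, and a row was said to rise or fall at a difference of 2 or more in size, which is 4-fold on that scale and understates the change of low genes. The morula was higher in 852 rows, 6.91% of those compared, and lower in 695, 5.63%. These shares are the background for the counts of every gene list below. Together 1547 rows changed, 12.5%, and 55.1% of them were higher. The median difference of all rows was 0.07. Of the rows that rose, 114 had 0 reads at the 8-16 cell stage, and of those that fell, 149 had 0 reads in the morula. With a pseudocount of 5 RPM in place of 1, 566 rows changed, and 77 of the 161 changed genes chosen for description (the largest changes and the leading members of each list) no longer passed.

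**Figure D1:**
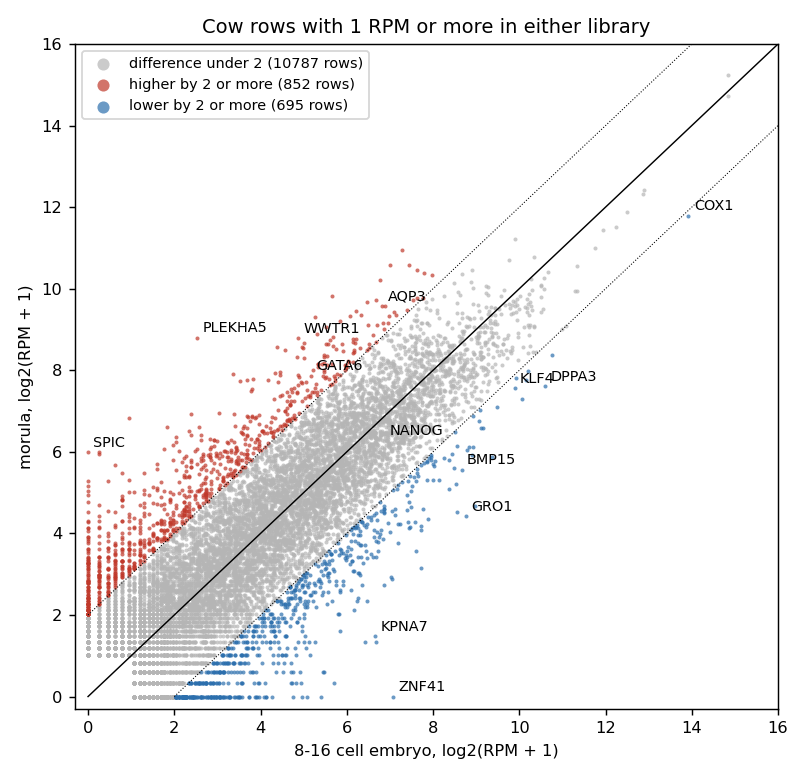
Levels of 12334 cow rows in the 8-16 cell library (x axis) and the morula library (y axis), both as log2(RPM + 1). Red points are the 852 rows that rose by 2 or more, blue points the 695 rows that fell by 2 or more; the solid line marks equal levels and the dotted lines a difference of 2.

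The other cow stages placed these genes in the course of development. Genes that rose had median levels of 3.04 RPM in the oocyte, 3.38 RPM in the 2-4 cell embryo, 2.95 RPM in the 8-16 cell embryo, 26.03 RPM in the morula and 26.5 RPM in the blastocyst. Genes that fell had medians of 24.7, 30.6, 19.1, 1.80 and 1.83 RPM in the same order, and 593 of the 695 had 1 RPM or more in the oocyte or the 2-4 cell library. Over all rows the medians lay between 9.74 and 12.4 RPM at every stage. Among the genes that rose, 31.3% were under 1 RPM in both the oocyte and the 2-4 cell library, against 17.4% of all rows and 14.7% of the genes that fell. In the blastocyst 66.5% of the genes that rose reached 10 RPM, against 54.1% of all rows, and 13.5% were under 1 RPM. Of the genes that fell, 44.7% were under 1 RPM in the blastocyst, against 20.01% of all rows. The 8-16 cell and morula values chose these genes, so the medians at those 2 stages are part of the choice.

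PLEKHA5 and SPIC led the genes with a symbol that rose. PLEKHA5, which encodes a pleckstrin-homology domain protein, rose from 4.79 RPM (3.27 to 7.01) at the 8-16 cell stage to 444 RPM (423 to 465) in the morula, 92.7-fold (63.05 to 142). SPIC, an ETS-family transcription factor, had 0 reads at the 8-16 cell stage and 62.6 RPM in the morula, at least 113-fold higher, and stood at 109 RPM in the blastocyst. GNG2, a G-protein gamma subunit, rose from 0.920 to 112 RPM, 121-fold (51.7 to 376). PEPD, the dipeptidase that splits proline-containing dipeptides, had 1 read at the 8-16 cell stage and 63.1 RPM in the morula, a ratio of 343 (60.9 to 13591). In the blastocyst these 4 genes stood between 43.9 and 187 RPM.

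The next rises held several genes with no reads at the 8-16 cell stage. The row named BRN had 0 reads before and 37.96 RPM in the morula, at least 68.7-fold higher. TNFSF15, a cytokine of the tumour necrosis factor family, went from 0 reads to 32.1 RPM, and TGM2, the enzyme tissue transglutaminase that cross-links proteins, from 0 reads to 29.7 RPM. KCNQ3, a potassium channel subunit, was at 3 reads and then at 50.5 RPM, a ratio of 91.5 (30.8 to 447), and only 0.423 RPM remained by the blastocyst. GXYLT2, a xylosyltransferase that acts on Notch-type repeats, rose from 0.736 to 43.6 RPM, TNS1, the focal-adhesion protein tensin, from 0.920 to 38.5 RPM, and SPARC, a secreted matrix protein, from 9.20 to 241 RPM. SCUBE2, ANKFN1 and LRRC66 were also among the 15 largest rises of rows with a symbol, with differences between 4.45 and 4.84.

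The largest fall was in ZNF41, a zinc finger gene on chromosome X (positions 91031761 to 91044478 in the authors' table). It had 0 reads in the oocyte and the 2-4 cell embryo, 133 RPM (124 to 143) at the 8-16 cell stage and 0 reads in the morula and the blastocyst, at least 173-fold lower. ADAMTS1, a secreted metalloprotease, had 32.95 RPM at the 8-16 cell stage and 0 reads in the morula, at least 42.8-fold lower, and STC2, the secreted hormone stanniocalcin, had 18.2 RPM and then 0 reads, a drop of at least 23.7-fold. GRO1, a CXC chemokine, stood at 0, 0, 432, 20.5 and 0 RPM over the 5 stages and fell 21.05-fold (16.8 to 26.6). The rows MGC152344 and MGC148328 went from 30.4 and 25.8 RPM to 0 reads. All of these were absent or nearly absent in the oocyte and the 2-4 cell embryo.

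KPNA7, the importin alpha of the oocyte and early embryo, fell from 101 to 1.80 RPM, 55.99-fold (26.99 to 139.9), after 798 RPM in the oocyte. CROT, a peroxisomal carnitine octanoyltransferase, fell from 211 to 7.95 RPM, 26.5-fold (18.6 to 39.2), and the histone row H2B from 504 to 24.6 RPM, 20.5-fold (16.7 to 25.4). AHR, the aryl hydrocarbon receptor, fell from 101 to 1.54 RPM, 65.9-fold (30.1 to 180.4); its span overlaps the row SNORD31. HAS2, the hyaluronan synthase that is also a cumulus marker, fell from 50.8 RPM to 1 read, a ratio of 198 (35.3 to 7853). It was at 141 RPM in the oocyte, and the cumulus markers as a list are given above; their part in this fall was not tested. CYCT, STAG3 and EXTL2 were also among the 15 largest falls of rows with a symbol, with differences of -4.61, -4.50 and -4.40 in that order. CYCT was at 0.406 RPM in the oocyte, STAG3 at 22.9 and EXTL2 at 68.8 RPM.

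Genes of the oocyte store had the lowest median difference of the 42 lists. Of 46 members compared, 18 fell, none rose and 44 had a lower value in the morula, with a median difference of -1.62 against 0.07 for all rows. The store differed in how far each gene had already declined by the 8-16 cell stage. BMP15, an oocyte growth factor, stood at 1181, 1399, 404, 46.2 and 0 RPM from oocyte to blastocyst and fell 8.75-fold (7.51 to 10.2). GDF9, its partner, stood at 400.2, 452, 44.7, 8.46 and 0 RPM and fell 5.29-fold (3.66 to 7.85). BTG4, an adaptor for removal of poly(A) tails from maternal messages, stood at 1723, 1917, 373, 22.1 and 1.13 RPM, 16.9-fold (13.6 to 21.2) lower in the morula than before.

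Further store genes reached very low levels in the morula. H1FOO, the oocyte linker histone, had 10.1 RPM and then 0 reads, at least 13.2-fold lower. OOSP1, a secreted oocyte protein, fell from 56.3 to 2.05 RPM, RGS2, a regulator of G-protein signalling, from 195 to 10.8 RPM, and WEE2, the oocyte kinase that holds meiotic arrest, from 76.2 to 7.18 RPM. NLRP14, of the maternal NLRP family, fell from 95.9 to 9.75 RPM. ZP3, a coat glycoprotein, was at 147 RPM in the oocyte and 10.1 RPM at the 8-16 cell stage, and then at 1.80 RPM, a difference of -1.99 that lies just short of the threshold. In these bulk libraries, fewer copies per cell and fewer cells holding them cannot be told apart.

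**Figure D2:**
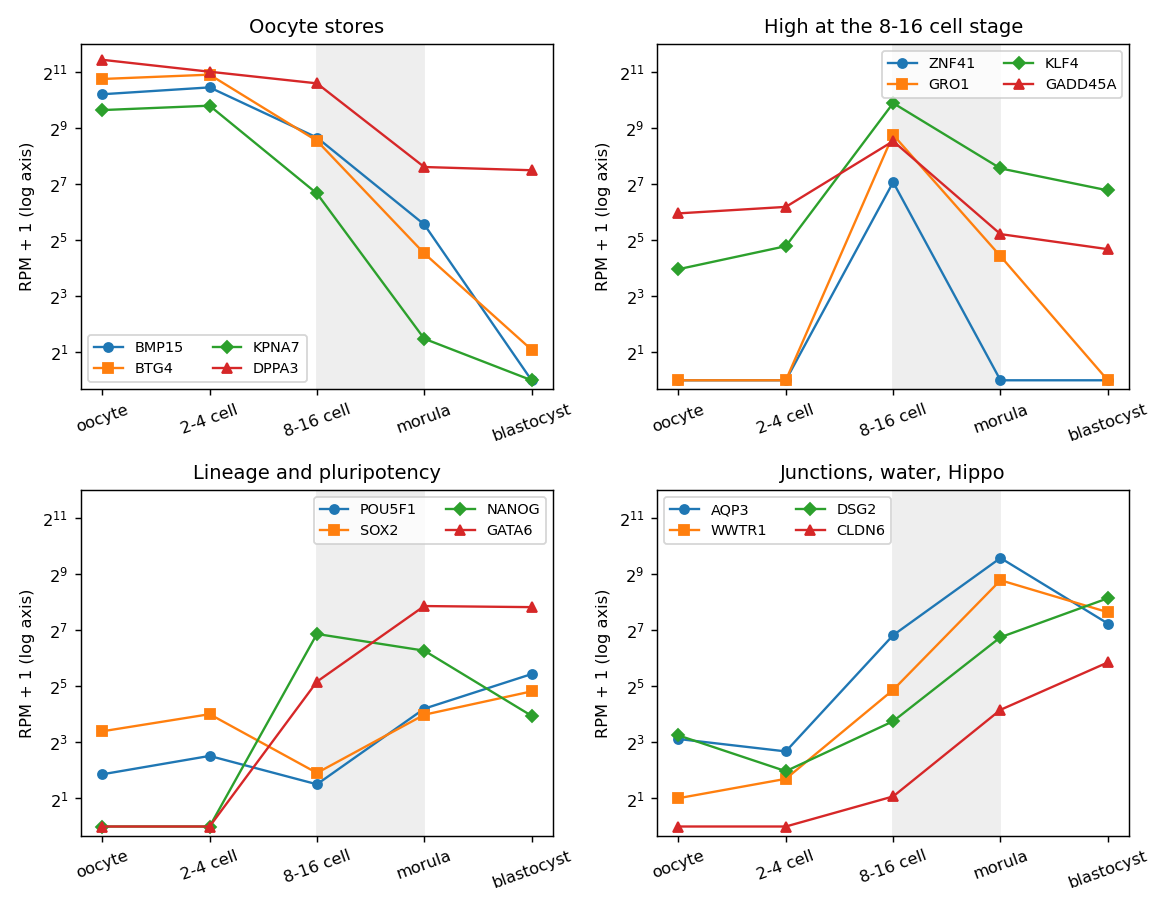
RPM + 1 on a log axis for 16 genes over the 5 cow libraries, 1 library per point, with the step from the 8-16 cell embryo to the morula shaded. Oocyte store genes decline over the shaded step. ZNF41 and GRO1 are seen mainly at the 8-16 cell stage, and AQP3, WWTR1, DSG2, CLDN6 and GATA6 rise into the morula.

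A set of genes was seen mainly at one of the 2 stages. Among the genes that fell, 83 were under 1 RPM in the oocyte, the 2-4 cell embryo and the blastocyst, 55 of them with a symbol. Besides ZNF41 and GRO1 they included BECN2, a relative of the autophagy protein beclin, which went from 175 to 16.9 RPM, 10.4-fold (8.07 to 13.5) lower. PCDH8, a protocadherin of the cell surface, went from 169 to 18.5 RPM, and PTGER4, a prostaglandin E receptor, from 54.5 to 3.08 RPM. Among the genes that rose, 79 were under 1 RPM at the same 3 stages, 64 of them with a symbol. The counts of 83 and 79 have no share of all rows beside them. COL25A1, a membrane collagen, went from 2.95 to 71.3 RPM, and NME5, of the nucleoside diphosphate kinase family, from 4.23 to 54.6 RPM. BECN2, PCDH8, PTGER4, COL25A1 and NME5 were chosen after their values were seen, as having high levels in these sets.

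Of 38 regulators linked to genome activation, 1 rose and 3 fell, beside 6.91% and 5.63% of all rows, with a median difference of -0.20. OTX1, a PRD-like homeobox factor, had 0 reads before the 8-16 cell stage and fell from 19.1 to 1.80 RPM, 10.7-fold (4.996 to 27.2). KLF4, a zinc finger factor of the pluripotency network, had its highest level of the course at the 8-16 cell stage and then fell from 948 to 188 RPM, 5.05-fold (4.67 to 5.47). ZSCAN4, a zinc finger gene known from early genome activation, was at 29.5 and then 21.3 RPM, a difference of -0.45, with 0 reads in the blastocyst. NR5A2, an orphan nuclear receptor, rose from 10.9 to 54.6 RPM, 5.03-fold (3.75 to 6.83); its difference of 2.23 was 1.67, under the threshold, once the median difference of each of 5 classes of genomic span was set to 0.

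Of 28 immediate early and stress genes 1 rose and 2 fell, beside 6.91% and 5.63% of all rows, with a median difference of -0.72. GADD45A, a growth arrest gene induced by damage, fell from 369 to 36.2 RPM, 10.2-fold (8.61 to 12.2). DUSP10, a MAP kinase phosphatase, fell from 105 to 10.8 RPM. FOS, a subunit of AP-1, was at 3 reads and then at 6.92 RPM, a ratio of 12.5 (3.86 to 64.6). The growth regulator MYC had 0 reads in the oocyte and the 2-4 cell embryo and was at 25.8 and then 6.67 RPM, a difference of -1.80 that did not reach the threshold.

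Pluripotency genes changed in both directions. Of 24 compared, 3 rose and 4 fell, beside 6.91% and 5.63% of all rows, with a median difference of 0.20. POU5F1, the core factor also called OCT4, rose from 1.84 RPM (0.9999 to 3.39) to 17.4 RPM (13.8 to 22.1), 9.47-fold (4.85 to 20.6), and reached 42.4 RPM in the blastocyst. SOX2, its binding partner, rose from 2.76 to 14.9 RPM, 5.39-fold (3.01 to 10.2), and ESRRB, an orphan nuclear receptor of the network, from 23.2 to 101 RPM, 4.33-fold (3.54 to 5.34). NANOG, which is high in the inner cell mass, behaved differently: it had 0 reads in the oocyte and the 2-4 cell embryo, 116 RPM at the 8-16 cell stage and 76.4 RPM in the morula, a difference of -0.60.

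Those that fell were not all alike in origin. DPPA3, a maternal protein that guards methylation and is counted among the pluripotency, methylation and oocyte genes, fell from 1546 to 194 RPM, 7.95-fold (7.38 to 8.58). PRDM1, a repressor known from germ cell specification, fell from 10.7 to 1.03 RPM and SALL1, a zinc finger factor, from 9.76 to 1.54 RPM. KLF4, given above, is the other member that fell. So POU5F1, SOX2 and ESRRB were higher in the morula, and KLF4, DPPA3, PRDM1 and SALL1 lower.

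Trophectoderm genes changed in both directions, and their defining keratins were near 0 in both libraries. Of 20 compared, 3 rose and 2 fell, beside 6.91% and 5.63% of all rows, with a median difference of -0.13. The median was 0.71 at a minimum of 5 RPM and 0.22 without overlapping rows. KRT8 and KRT18, the simple-epithelium keratins that define the layer, had 0 reads at the 8-16 cell stage and 2 and 3 reads in the morula, at or under the floor, against 1490.3 and 1021 RPM in the blastocyst. GATA3, a trophectoderm transcription factor, was at 0.552 RPM and then 1.28 RPM. ANXA2, a membrane-binding annexin, rose from 3.13 to 74.6 RPM, 23.8-fold (14.6 to 41.5), and S100A14, a calcium-binding protein, from 0 reads to 5.39 RPM.

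The factors of this list split by gene. TEAD1, a DNA-binding partner of the Hippo effectors, rose from 22.8 to 126 RPM, 5.53-fold (4.53 to 6.79). TEAD4, the family member required for trophectoderm in mouse, was at 5.89 and then 17.7 RPM, a difference of 1.44. EOMES, a T-box factor, fell from 9.39 RPM to 2 reads, and GATA2, a partner of GATA3, from 7.73 RPM to 2 reads before 76.9 RPM in the blastocyst. CDX2 was not among the 6 trophectoderm markers with a row, and no level of it is given here.

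Primitive endoderm genes had the highest median of all lists, 1.37 over 17 members, with 6 that rose and 1 that fell. GATA6, the factor that directs this lineage, had 0 reads in the oocyte and the 2-4 cell embryo and rose from 34.98 RPM (30.3 to 40.3) to 232 RPM (218 to 248), 6.64-fold (5.68 to 7.81). FGFR4, a fibroblast growth factor receptor, rose from 1.47 to 25.9 RPM, 17.6-fold (8.59 to 41.8). Matrix and secreted genes rose beside them: SPARC rose 26.2-fold (19.7 to 35.5), RSPO3, a secreted WNT enhancer, went from 1.47 to 43.9 RPM, FN1, fibronectin, from 7.18 to 56.4 RPM, and NID1, a basement membrane linker, from 1 read to 6.15 RPM.

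PDGFRA, the lineage's surface receptor, was at 198 and then 130.3 RPM, a difference of -0.60. The summed level of GATA4, SOX17 and PDGFRA was 198 RPM at the 8-16 cell stage and 131 RPM in the morula. This sum is in effect PDGFRA alone, since GATA4 had 1 read in each library and SOX17 had 0 reads in both. GATA6 and the matrix genes thus rose at the step at which PDGFRA was lower by less than the threshold.

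**Figure D3:**
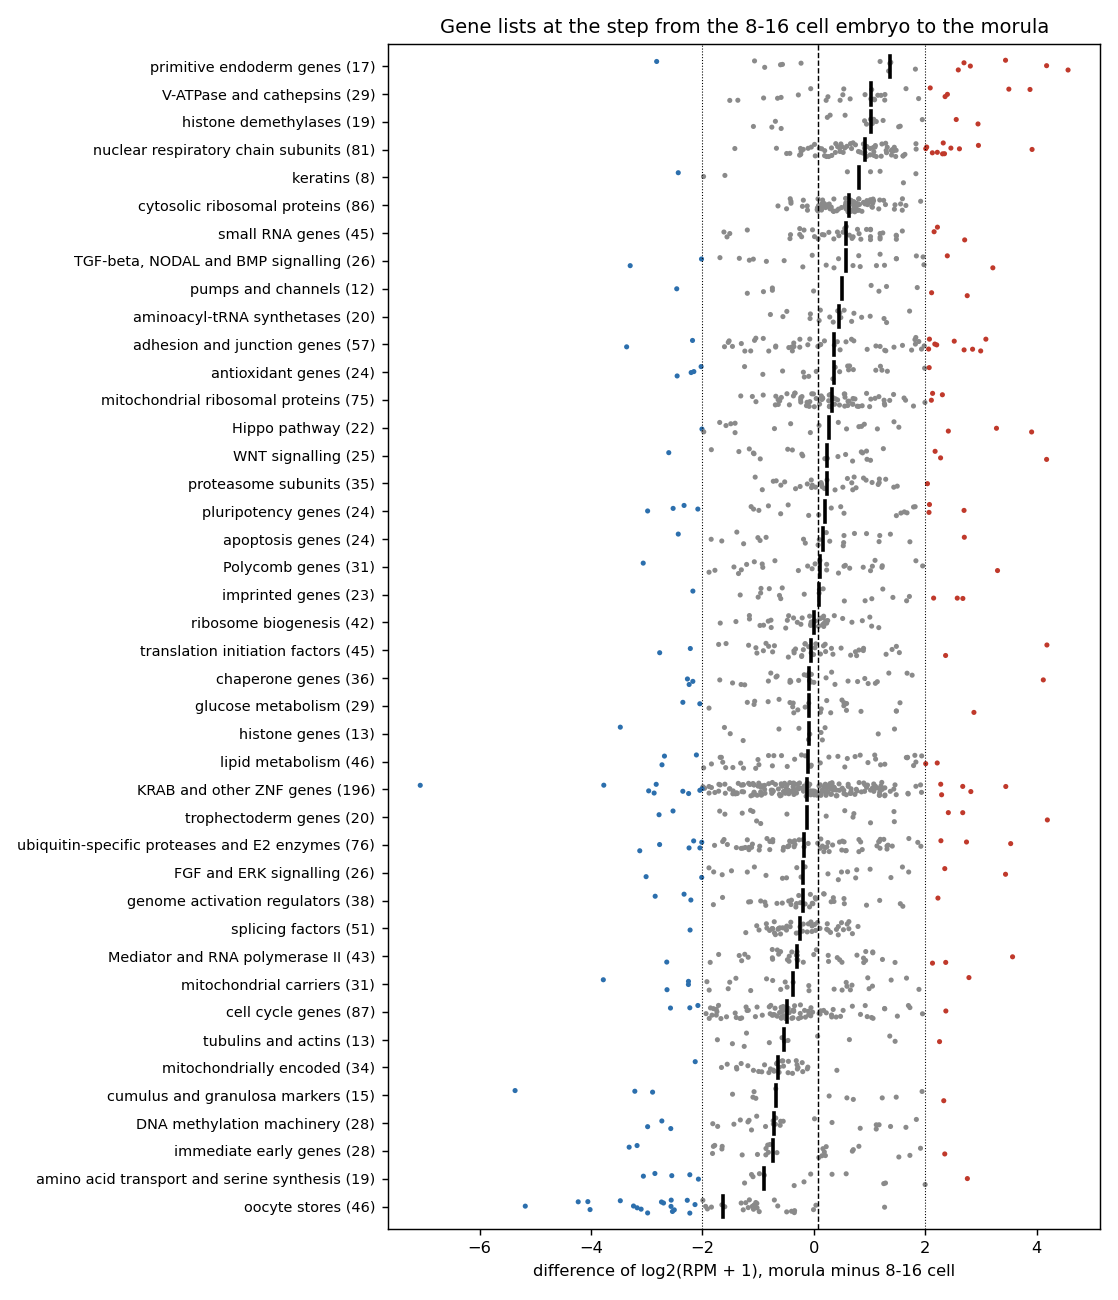
Differences of log2(RPM + 1), morula minus 8-16 cell, of the members of 42 gene lists, 1 point per compared row, with the number of rows in parentheses. The black bar is the list's median, the dashed line the median of all rows (0.07) and the dotted lines a difference of 2 in size; primitive endoderm genes are at the top (1.37) and oocyte stores at the bottom (-1.62).

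Genes of cell contact and polarity rose more often than they fell, as did all rows. Of 57 compared, 9 rose and 2 fell, beside 6.91% and 5.63% of all rows, with a median difference of 0.37. The median was 0.04 once the median difference of each of 5 span classes was set to 0, an alternative taken up with the gene spans. CDH1, E-cadherin, the adhesion molecule of compaction, was at 67.9 and then 166 RPM, a difference of 1.27 that did not reach the threshold. CTNNA1, alpha-catenin, which links cadherin to actin, rose from 43.4 to 319.8 RPM, 7.36-fold (6.400 to 8.50); its span holds the row LRRTM2. CLDN6, a tight junction claudin with 0 reads in the oocyte and the 2-4 cell embryo, rose from 1.10 to 16.9 RPM, 15.3-fold (6.68 to 43.3).

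Desmosomal cadherins rose together. DSG2, DSG3, DSG4 and DSG1 lie next to each other on chromosome 24 (positions 25913549 to 26133405 in the authors' table) and all 4 rose. DSG2 went from 12.5 to 107 RPM, 8.54-fold (6.60 to 11.2), and DSG3 from 2.02 to 13.8 RPM. DSG4 had 0 reads and then 6.67 RPM, and DSG1 1 read and then 20.5 RPM. DSG2 alone is a member of the list, and it was at 282 RPM in the blastocyst.

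PARD3, a scaffold of the apical polarity complex, rose from 117 to 763 RPM, 6.54-fold (6.002 to 7.14), and PRKCZ, its atypical protein kinase C partner, from 0.736 to 8.98 RPM. GJA1, connexin 43, a gap junction protein, fell from 30.4 to 2.05 RPM, 14.8-fold (7.34 to 34.9). EZR, ezrin, which ties the apical membrane to actin, fell from 188 to 40.8 RPM, 4.61-fold (3.90 to 5.49), and was at 727 RPM in the blastocyst.

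Among 12 pump and channel genes of the kind that later fill the blastocoel, 2 rose and 1 fell. AQP3, a water and glycerol channel, rose from 112 RPM (104 to 122) to 765 RPM (738 to 793), 6.80-fold (6.23 to 7.43), its highest level of the 5 stages. AQP7, a related channel, went from 0 reads to 3.33 RPM. ATP1B1, a beta subunit of the sodium pump, fell from 28.5 to 4.36 RPM, while ATP1B3, another beta subunit, was at 59.3 and then 217 RPM. ATP1B1 overlaps the row NME7.

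In the Hippo pathway, which reads cell position and polarity, 3 of 22 members rose and 1 fell, beside 6.91% and 5.63% of all rows. WWTR1, the transcriptional effector TAZ, rose from 28.3 to 441 RPM, 15.6-fold (13.2 to 18.5), after 1.01 RPM in the oocyte and 2.25 RPM in the 2-4 cell embryo. AMOTL2, an angiomotin that holds the effectors at junctions, went from 0 reads to 8.72 RPM, at least 15.8-fold higher. MOB1A, an adaptor of the LATS kinases, fell from 362 to 89.2 RPM, and AMOT itself was at 28.2 and then 6.41 RPM, a difference of -1.98. The list's median was 0.27, and -0.09 once the median difference of each of 5 span classes was set to 0.

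Few genes of the signalling lists passed the threshold, and the medians of these lists lay between -0.19 and 0.57. In FGF and ERK signalling 2 of 26 members rose and 2 fell (median -0.19). FGFR4 and its ligand FGF1 rose, FGF1 from 1.66 to 12.6 RPM, and SPRY1 and SPRY2, feedback inhibitors of the pathway, fell from 46.4 to 4.87 RPM and from 32.03 to 7.18 RPM. In TGF-beta, NODAL and BMP signalling 2 of 26 rose and 2 fell (median 0.57). SMAD6, an inhibitory SMAD, rose from 0.736 to 15.1 RPM and TGFB1, a ligand, from 3 reads to 7.18 RPM.

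ID3, a target gene of BMP signalling, dropped at least 11.5-fold, with 8.84 RPM before and 0 reads after, and BMPR1B, a BMP receptor, fell from 24.9 to 5.39 RPM. In WNT signalling 3 of 25 members rose and 1 fell (median 0.24), beside 6.91% and 5.63% of all rows. ZNRF3, the ligase that removes WNT receptors and is itself countered by R-spondins such as RSPO3, went from 0 reads to 3.85 RPM. AXIN1, a scaffold of the beta-catenin destruction complex, rose from 0.920 to 7.69 RPM. WNT5A, a non-canonical ligand, fell from 12.9 to 1.28 RPM, 10.05-fold (4.11 to 31.9).

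The DNA methylation machinery was lower on the whole, with a median difference of -0.71 over 28 members, 3 of which fell and none of which rose. UHRF1, which brings the maintenance methyltransferase to replicated DNA, fell from 62.8 to 9.75 RPM, 6.44-fold (4.60 to 9.26), and TET3, the maternal dioxygenase that oxidises methylcytosine, from 22.6 to 2.56 RPM, 8.83-fold (4.64 to 18.9). DPPA3 is the other member that fell. DNMT1, the maintenance enzyme, was at 57.4 and then 25.9 RPM, a difference of -1.12. DNMT3A and DNMT3B, the de novo enzymes, were at 5.71 and 11.4 RPM and then at 1.03 and 3.59 RPM, before 178 and 157 RPM in the blastocyst.

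The oxidases differed from each other. TET1 had 2.03 RPM in the oocyte, 203 RPM at the 8-16 cell stage and 459 RPM in the morula, a difference of 1.17, while TET3 fell. ZFP57, which protects imprints, was at 17.7 and then 11.3 RPM, a difference of -0.60. TRIM28, its corepressor, was at 16.8 and then 54.9 RPM.

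Imprinted genes, expressed from 1 parental copy, had a median difference of 0.10 over 23 members. Of these 3 rose and 1 fell, beside 6.91% and 5.63% of all rows. PON2, a lactonase gene near PEG10, rose from 0.920 to 11.3 RPM, 12.3-fold (4.87 to 39.6), and ATP10A, a lipid flippase, from 9.57 to 62.1 RPM. NAP1L5, a nucleosome assembly gene that lies inside HERC3, rose from 3 reads to 5.90 RPM. PEG10, a retrotransposon-derived placental gene, fell from 11.6 to 1.80 RPM, 6.46-fold (2.96 to 16.7). IGF2R, the growth-restricting receptor, was at 16.02 and then 14.1 RPM. The share that rose, 3 of 23, rests on genes of which 2 had 5 reads or fewer at the 8-16 cell stage.

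Chromatin modifiers differed by class. Histone demethylases had a median of 1.02 over 19 members, 15 of them with a positive difference and 2 past the threshold. KDM6A, which removes the methyl marks of Polycomb, rose from 69.6 to 415 RPM, 5.96-fold (5.33 to 6.68), and KDM4C, which acts on histone H3 lysine 9, from 28.7 to 229 RPM, 7.96-fold (6.71 to 9.49). The list's median was 0.49 once the median difference of each of 5 span classes was set to 0. Among 31 Polycomb genes 1 rose and 1 fell: JARID2, a cofactor of repressive complex 2, went from 20.2 to 208 RPM and PCGF2, of repressive complex 1, from 7.36 RPM to 0 reads.

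Respiratory chain genes of the nucleus were mostly higher in the morula, and rows of the mitochondrial chromosome mostly lower. Of 81 nuclear subunit rows 11 rose, none fell and 70 had a positive difference, with a median of 0.92. ATP5A1, the alpha subunit of ATP synthase, rose from 20.2 to 129 RPM, 6.38-fold (5.18 to 7.92). NDUFA12 and NDUFA9, of complex I, rose from 5.34 to 48.2 RPM and from 3.68 to 22.8 RPM, CYC1, cytochrome c1 of complex III, from 2.39 to 17.7 RPM, and ATP5D, another ATP synthase subunit, from 1 read to 16.9 RPM.

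The 34 rows of the mitochondrial chromosome had a median of -0.64, with 33 negative. These rows, with a median span of 0.0705 kb, were not limited to respiratory chain subunits. COX1, a subunit of cytochrome c oxidase, alone passed the threshold: it fell from 15499 to 3539 RPM, 4.38-fold (4.30 to 4.46), and was at 16318 RPM in the blastocyst. With quantile normalisation its difference was -1.17, so that no row of this chromosome passed. ND5 and ATP8, among the rows with most reads in both libraries, were at 7572 and 7433 RPM and then at 5519 and 5096 RPM. The difference of ATP8, -0.54, turned to 0.18 with quantile normalisation. The 2 rows with most reads carry identifiers only and had differences of -0.12 and 0.41. MT-ND4L was at 5821 and then 3788 RPM.

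Ribosomal protein genes were mostly higher in the morula by less than the threshold. None of 86 cytosolic ribosomal protein rows passed the threshold, yet 77 had a positive difference and the median was 0.63. RPS27, a small subunit protein, had the largest difference, 1.92, with 25.04 RPM before and 97.5 RPM after, and RPS3 was at 194 and then 587 RPM. Of 75 mitochondrial ribosomal proteins 3 rose, MRPL42 from 9.76 to 52.3 RPM, with a median of 0.34. Nucleolar factors of ribosome assembly were near 0, with a median of 0.01 over 42 members and none past the threshold in either direction.

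Initiation factors did not follow the ribosomal proteins: their median was -0.05 over 45 members. EIF4G3, a scaffold of the cap-binding complex, rose from 19.9 to 379 RPM, 19.1-fold (15.7 to 23.4), and EIF2B3, of the exchange factor for eIF2, from 17.5 to 94.4 RPM. EIF5A2 and EIF1B, small factors of elongation and of start site choice, fell from 25.04 to 2.82 RPM and from 93.1 to 19.2 RPM. Splicing factors had a median of -0.25 over 51 members, with PRPF19, a core spliceosome ligase, falling from 56.3 to 11.3 RPM. Aminoacyl-tRNA synthetases had a median of 0.45 over 20 members, none of which passed the threshold.

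Genes of lysosomal acidification and lysosomal proteases that passed the threshold changed in 1 direction. Of 29 proton pump subunits and cathepsins 5 rose and none fell, with a median of 1.02. In all, 22 had a positive and 7 a negative difference. ATP6V0D2, a membrane subunit of the pump, rose from 20.8 to 246 RPM, 11.8-fold (9.73 to 14.5), after 1 read in the oocyte and 0 reads in the 2-4 cell embryo. ATP6V0A4, the large membrane subunit, rose from 0.736 to 24.6 RPM and ATP6V1C2, of the cytosolic part, from 4.05 to 25.6 RPM. The cathepsins CTSS and CTSK, lysosomal proteases, rose from 3.50 to 22.1 RPM and from 0.920 to 7.18 RPM. The highest level of these 5 genes in the oocyte or the 2-4 cell embryo was 6.53 RPM, in ATP6V0A4.

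Metabolic genes split by pathway. In lipid metabolism the 20 sterol genes had a median of -0.65 and the 26 fatty acid and lipid droplet genes a median of 1.03. STARD4, a cholesterol carrier, fell from 85.4 to 12.1 RPM. CPT1A, which lets fatty acids into mitochondria for oxidation, rose from 5.89 to 31.03 RPM, 5.27-fold (3.54 to 8.04), and ACSL4, an acyl-CoA synthetase, from 8.10 to 35.6 RPM. ACLY, which makes the acetyl-CoA for fat and sterol synthesis, fell from 139 to 20.8 RPM, 6.68-fold (5.31 to 8.51).

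Amino acid transporters and serine enzymes were lower, with a median of -0.89. Of 19 members 5 fell and 1 rose, beside 5.63% and 6.91% of all rows. SLC7A2, an arginine and lysine transporter, fell from 92.96 to 10.3 RPM, 9.06-fold (6.56 to 12.8), ASNS, asparagine synthetase, from 46.9 to 7.18 RPM, and PSPH, the last enzyme of serine synthesis, from 9.94 RPM to 2 reads. SLC7A3, a second arginine transporter, fell from 3.68 RPM to 0 reads and SHMT1, which links serine to folate, from 6.44 RPM to 3 reads. SLC1A1, a glutamate transporter, rose from 39.03 to 269.8 RPM, 6.91-fold (5.96 to 8.05). ASNS overlaps the row SNORA31, and SLC1A1 an unnamed row.

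In glucose metabolism (29 members, median -0.09) TALDO1, of the pentose phosphate pathway, rose from 4.97 to 42.8 RPM. LDHA, lactate dehydrogenase, fell from 29.6 to 6.41 RPM and PDK1, a pyruvate dehydrogenase kinase, from 23.7 to 3.85 RPM. LDHA had been at 617 RPM in the oocyte. Antioxidant genes had a median of 0.36 over 24 members but 4 fell and 1 rose: SOD1, superoxide dismutase, went from 21.4 to 3.08 RPM and NQO1, a quinone reductase, from 4.97 to 24.1 RPM. Of 31 carriers of the inner mitochondrial membrane 4 fell and 1 rose. SLC25A28, an iron importer, fell from 55.04 to 3.08 RPM, 17.9-fold (10.1 to 35.004), and SLC25A37, its close relative, went from 0 reads to 5.90 RPM.

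Chaperones had a median of -0.08 over 36 members. HSPB1, a small heat shock protein, had 0 reads at the 8-16 cell stage and 16.4 RPM in the morula, at least 29.7-fold higher, before 633 RPM in the blastocyst. BAG3 and DNAJB1, co-chaperones of HSP70, fell from 24.9 to 4.36 RPM and from 102 to 21.8 RPM, and PDIA4, a disulfide isomerase, from 15.8 to 2.56 RPM. Proteasome subunits had a median of 0.24 over 35 members, with PSMB7, a catalytic subunit, rising from 28.9 to 122 RPM. Among 76 ubiquitin proteases and conjugating enzymes 3 rose and 6 fell: USP48 went from 44.9 to 532 RPM and USP1, a regulator of DNA repair, from 1074 to 157 RPM.

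Cell cycle genes were mostly lower by less than the threshold. Of 87 compared, 1 rose, 3 fell and 63 had a negative difference, with a median of -0.48. CDC6, a loader of the replicative helicase, fell from 61.5 to 9.49 RPM, 6.48-fold (4.61 to 9.36), and E2F8, a repressor of the E2F family, from 3.68 RPM to 0 reads. E2F6, another repressor of that family, rose from 2.76 to 18.5 RPM. In the apoptosis list (24 members, median 0.16) the survival gene BCL2L1 rose from 3.68 to 29.5 RPM, 8.01-fold (4.95 to 13.6), and the initiator caspase CASP9 fell from 7.18 RPM to 2 reads.

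Zinc finger genes named ZNF formed the largest list, with 196 rows compared, 5 that rose, 9 that fell and a median of -0.12. ZNF609, a regulator that works with cohesin loaders, rose from 108 RPM (99.8 to 117) to 1191 RPM (1157 to 1226), 11.01-fold (10.1 to 12.01), with 114 RPM at the blastocyst stage; its span overlaps an unnamed row. ZNF436, ZNF711, ZNF462 and ZNF618 fell, ZNF462 from 102 to 13.1 RPM. In the Mediator and RNA polymerase II list (43 members, median -0.30) MED13L, of the kinase module, rose from 250.4 to 1298 RPM, and MED27, of the tail, from 26.3 to 119 RPM. MED8, of the head, fell from 18.04 to 2.05 RPM.

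Smaller lists gave few changes. Keratins numbered 8 compared rows, of which KRT222 fell, from 7.18 RPM to 2 reads, and none rose. Among 13 tubulins and actins ACTG1, gamma-actin, rose from 7.73 to 40.8 RPM and ACTB, beta-actin, was at 152 and then 392.1 RPM. Of 45 rows of small RNAs 3 rose. In the histone list (13 rows, median -0.10) only H1FOO passed the threshold; the row H2B, given above, is not a member. Of 15 compared markers of the cells around the oocyte 3 fell and 1 rose, with a median of -0.68: COL1A1 and TNFAIP6 went from 8.28 and 6.44 RPM to 0 reads beside HAS2, and CYP19A1, the aromatase gene, from 2 reads to 5.90 RPM.

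Genes that rose spanned more of the genome than genes that fell. The median span from start to end in the authors' table was 58.3 kb for the genes that rose, 18.6 kb for those that fell and 25.04 kb for all rows. When rows were put into 5 classes of equal size by span, 3.65% of the shortest class rose and 7.30% fell, while 14.96% of the longest class rose and 5.11% fell. The median difference went from -0.11 in the shortest class to 0.56 in the longest. Among rows with a mean of 10 RPM or more the share that rose was 2.82% and 18.2% in the same classes, and among rows that overlap no other row 3.46% and 14.9%.

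The same step in pig ran the other way, with a median difference of 0.48 in the shortest class of pig rows and -0.21 in the longest. The part of gene span in the results above was not tested. As an alternative chosen after this relation was seen, the median difference of each class was set to 0; then 683 rows rose and 760 fell, and in the longest class 7.46% rose and 9.41% fell. The sign of the 161 changed genes chosen for description could not change under it, since no class median was above 0.56 in size. Of these 161 genes 16 no longer passed the threshold. Among them NR5A2, TEAD1, FGF1, KDM6A, MED13L, MED27, EIF2B3 and PSMB7, given above as genes that rose, had differences between 1.57 and 1.997. MOB1A, SALL1, SPRY2 and LDHA, given above as genes that fell, had differences between -1.95 and -1.90.

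**Figure D4:**
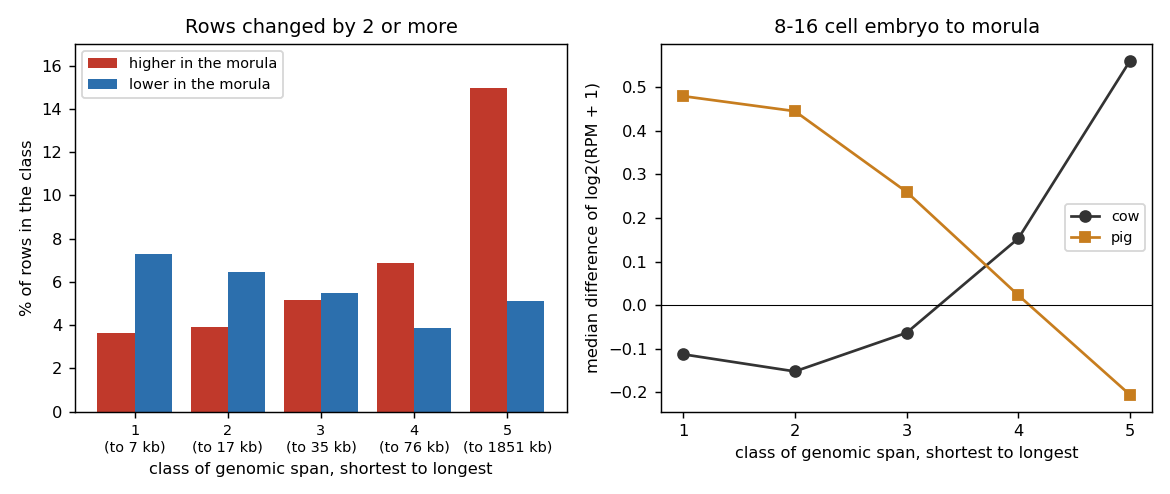
Left, the percentage of rows in each of 5 span classes that rose (red) or fell (blue) from the cow 8-16 cell embryo to the morula, from 3.65% and 7.30% in the shortest class to 14.96% and 5.11% in the longest. Right, the median difference of log2(RPM + 1) at this step in each class for cow (circles) and pig (squares), which run in opposite directions.

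Changed genes also stood next to each other in places. There were 8 runs of 4 or more neighbouring compared rows that changed the same way, 4 higher and 4 lower. The longest had 8 rows on chromosome 1, from IGSF10 to GPR171 (positions 117532037 to 117917463 in the authors' table). MED12L, a Mediator kinase module subunit, rose from 128 RPM (119 to 138) to 1528 RPM (1489.7 to 1567), 11.96-fold (11.05 to 12.96). Within its span, on the other strand, lie P2RY12, P2RY13, P2RY14 and GPR171, which encode nucleotide and related receptors. P2RY12 rose from 32.6 to 181 RPM, P2RY14 from 12.7 to 178 RPM and GPR171 from 3.87 to 49.2 RPM. How strand was handled in counting is not given in the sources used here, so reads of MED12L and of these rows cannot be told apart.

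Rows that overlap another row made up 9.27% of those compared, 13.0% of those that rose and 6.04% of those that fell. The run of desmogleins on chromosome 24, described above, has no overlapping rows. On chromosome 7 the protease inhibitors SPINK5, SPINK6 and SPINK7 rose together, SPINK5 from 2.39 to 32.1 RPM and SPINK6 from 0 reads to 18.5 RPM. A run on chromosome 4 held PLXNA4, CHCHD3, EXOC4 and LRGUK, where CHCHD3, a protein of the mitochondrial cristae, rose from 69.95 to 432 RPM and EXOC4, an exocyst subunit, from 58.5 to 399 RPM. The longest run of lower rows, also on chromosome 4, included TMEM106B, SCIN, ETV1 and DGKB, with TMEM106B, a lysosomal membrane protein, at 12.3 RPM and then 0 reads. Among the genes named, SMAD6, PRKCZ, JARID2, TET1, ATP10A, ZFP57, IGF2R, CASP9, ANKFN1, PLXNA4, EXOC4, SPINK7, PTPRC, COX1 and ND5 also overlap another row, some of them a small RNA.

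The same step was set beside pig, whose libraries are separate from those of cow and were scaled separately. From the pig 8-16 cell embryo to the pig morula 12.5% of 12746 rows rose and 12.1% fell. Of 8420 symbols compared in both species, 6.79% rose and 5.62% fell in cow, and 12.6% rose and 11.2% fell in pig. Genes that rose in both numbered 96, which is 16.8% of the 572 that rose in cow and 9.04% of the 1062 that rose in pig. Genes that fell in both numbered 125, 26.4% of the 473 that fell in cow and 13.3% of the 939 that fell in pig. The shares among cow genes were thus above the pig shares over all shared symbols, and more so for falls.

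The oocyte stores had medians below 0 in both species. Of 46 compared cow members 35 were also compared in pig, with medians of -1.65 in cow and -2.20 in pig, 13 falls in cow and 19 in pig. KPNA7 went from 752 to 28.97 RPM in pig (difference -4.65, cow -5.18), BTG4 from 635 to 33.97 RPM (pig -4.18, cow -4.02) and RGS2 from 48.6 RPM to 0 reads (pig -5.63, cow -4.06). Genes that rose in both included WWTR1, which went from 3.47 to 35.6 RPM in pig, ATP6V0D2, from 0.632 to 319 RPM, and DSG2, from 0.316 to 20.98 RPM. LPP, a focal adhesion protein, and GLDC, of the glycine cleavage system, were among the largest common rises, the cow levels being 3.31 and then 63.9 RPM for LPP and 38.8 and then 475 RPM for GLDC. Their pig levels were 13.3 and then 186 RPM, and 14.8 and then 258 RPM. LPP and GLDC were chosen after their values were seen. In pig, KPNA7 overlaps the row U2, BTG4 the row C11orf88, and LPP and GLDC each an unnamed row.

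The extent of change differed between species for some lists. Cytosolic ribosomal proteins compared in both numbered 43, of which none rose in cow (median 0.62) and 36 rose in pig (median 2.47). Of 44 nuclear respiratory chain subunits 6 rose in cow (median 1.01) and 30 in pig (median 2.44), and no member of either list fell in either species. Splicing factors had medians of -0.42 in cow and 1.02 in pig, and chaperones -0.07 and 1.42. These differences between species were not tested, and with 1 library each species and library cannot be told apart.

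**Figure D5:**
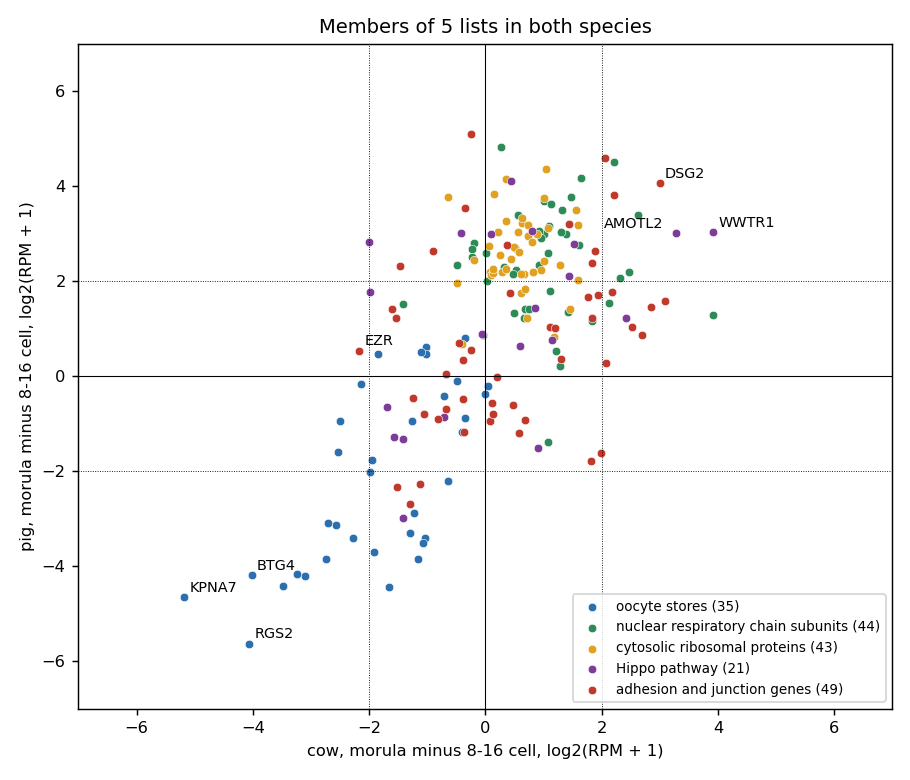
Difference of log2(RPM + 1), morula minus 8-16 cell, in cow (x axis) and pig (y axis) for the members of 5 lists compared in both species, 1 point per symbol; dotted lines mark a difference of 2 in size. Oocyte store genes lie mostly in the lower left, and ribosomal proteins and respiratory chain subunits lie higher on the pig axis (medians 2.47 and 2.44) than on the cow axis (0.62 and 1.01).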

How the data were processed

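Per the labels' protocols, total RNA came from a small-sample isolation kit (PicoPure), was amplified from low input (Ovation) and went through 8 PCR cycles. The submitters' processing notes name Trim Galore 0.6.4, HISAT2 2.1.0 and the builds UMD3.1 and Sscrofa11.1, with no role or order; positions are as the authors' tables give them. The counting method, annotation, strand setting and handling of duplicates are not given in the sources used here. The authors deposited log2 values, 1 table per species. The second lowest value of a column is that of 1 read, and 100% of higher values are whole numbers of reads (within 0.01 of a read), so the deposited log2 values are log2 RPM, with 0 reads written as 0.9 of a read. Here 0 reads was set to 0 RPM. RPM is not divided by gene length, so levels compare libraries and not genes.

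Rows with 1 RPM or more in either library were compared by the difference of log2(RPM + 1) and called at 2 or more, with Wilson intervals on RPM, exact conditional (Clopper-Pearson) intervals on folds, all at 95%, and a floor of 3 reads. Folds against 0 reads are lower bounds against that floor. Of 1136 list names 1017 matched a row by symbol and 11 by a RefSeq synonym; 14 further lists came from name patterns or the chromosome. Cow and pig rows were paired by identical symbol. The members and lists were chosen with earlier results of these data known. Genes named include the 15 largest rises and falls with 10 RPM or more among rows with a symbol. Rows with an identifier only were not ranked, though some changed by more than ranked genes, 1 of them with a difference of -5.40. Up to 5 members of each list with the largest difference are also named, plus defining members. So are the rows with most reads, those at the 1 RPM threshold and runs of neighbours. Others are said to be chosen after their values were seen. Some genes that this rule names are not reported here. A comparison of promoter motifs was not run, since no promoter sequences were used here. Calculations used Python 3.11.15, NumPy 2.4.6, pandas 2.3.3, SciPy 1.17.1 and matplotlib 3.10.9, and were tested on simulated data.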

Additional observations from a re-analysis of the deposited data

Results flagged for a closer look

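Among symbols compared in both species, 61 rose from the 8-16 cell embryo to the morula in cow and fell in pig, 10.7% of the cow rises and 6.50% of the pig falls. Over all symbols compared in both species 11.2% fell in pig and 6.79% rose in cow, so these shares lie just under the background. A further 32 fell in cow and rose in pig, 6.77% of the cow falls and 3.01% of the pig rises, against 12.6% that rose in pig and 5.62% that fell in cow over all symbols, so they too lie under the background. These genes are given because the libraries of cow and pig, 1 per stage in each species, moved in opposite directions past the threshold of 2; the difference between species was not tested, and genes that move in opposite directions were not more frequent than the background. The examples here were chosen after their values were seen.

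Among the 61, SLC8A1, the sodium and calcium exchanger, was at 73.6 and then 703 RPM in cow, and at 119 and then 9.99 RPM in pig. BCL2L1, a survival gene of the BCL2 family, was at 3.68 and then 29.5 RPM in cow, and at 344 and then 22.6 RPM in pig, where it overlaps the row ID1. SPINK5, a protease inhibitor, was at 2.39 and then 32.1 RPM in cow, and at 75.8 and then 4.33 RPM in pig.

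Among the 32, SLC7A2, an arginine and lysine transporter, was at 92.96 and then 10.3 RPM in cow, and at 3.47 and then 28.97 RPM in pig. BCAT1, the cytosolic branched-chain aminotransferase, was at 18.96 and then 1.54 RPM in cow, and at 17.1 and then 182 RPM in pig. UPRT, a gene of the uracil salvage family, was at 254 and then 38.98 RPM in cow, and at 5.05 and then 48.96 RPM in pig. In pig it overlaps the row ZDHHC15. SLC25A28, a mitochondrial iron importer, was at 55.04 and then 3.08 RPM in cow, and at 1 read and then 10.3 RPM in pig.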

How the results depend on the processing

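With 1 library per stage no replicate could be left out. No paired analysis was possible because each group has 1 library. With a pseudocount of 5 RPM, 339 rows rose and 227 fell (566 in all); with a threshold of 1, 2958 rose and 2518 fell (5476), and with a threshold of 3, 215 rose and 151 fell (366). The share of changed rows that rose, 55.1%, was 59.9% with a pseudocount of 5 RPM, 58.7% at a threshold of 3, 52.1% when scaled to non-mitochondrial gene reads, 50.9% with the median difference set to 0, 50.8% with quantile normalisation and 47.3% with the median of each of 5 span classes set to 0, a setting chosen after seeing the data. All other alternatives kept the counts within 1.5 times. In both species at a threshold of 1, 37.1% of the cow rises also rose in pig, 20.1% of them fell in pig, 21.6% of the cow falls rose in pig and 39.5% fell in pig. Of 42 list medians 13 changed sign under a setting; the cause was not tested. With the span medians set to 0 these were Hippo pathway (0.27 to -0.0900), imprinted genes (0.10 to -0.05) and chaperones (-0.08 to 0.02). At a minimum of 5 RPM they were keratins (0.81 to -0.916), trophectoderm genes (-0.13 to 0.71, and 0.22 without overlapping rows), FGF and ERK signalling (-0.19 to 0.25), Polycomb genes (0.11 to -0.0037), pluripotency genes (0.20 to -0.0022), glucose metabolism (-0.09 to 0.01) and lipid metabolism (-0.10 to 0.02). With no minimum they were WNT signalling (0.24 to -0.21) and pumps and channels (0.51 to -0.00397). Ribosome biogenesis (0.0096) was -0.0060 scaled to non-mitochondrial gene reads, -0.06 with the median difference set to 0 and -0.03 with quantile normalisation. Of 161 named genes that changed, 77 stayed past the threshold of 2 in every setting that kept their row. All kept their sign in these settings. A new pseudocount or minimum, or a shift by these medians, could not have reversed a difference of 2 or more. The call was lost by 77 with a pseudocount of 5 RPM, 16 with the span medians set to 0, 5 with quantile normalisation (COX1, ACSL4, NQO1, PSMB7 and SOX2), 4 with 0 reads kept at 0.9 of a read and 2 (ACSL4 and PSMB7) with the median difference set to 0. The depth of the morula library limits what low values can show: 0 reads there allow 0.769 RPM. The comparison of promoter motifs over a shorter window was not run.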
